A study of Mus musculus with 79 samples.

Results

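The regions described here are distal H3K4me3 sites of the adult mouse hypothalamus: stretches of autosome that carried trimethylated lysine 4 of histone H3 although the gene list deposited with the study placed no gene start nearby. A tile of 2 kb, laid every 1 kb, was taken when its mean H3K4me3 over the +/+ libraries was at least 5 RPM (reads scaled by the size of the library, the unit used for all ChIP-seq levels), its mean +/+ input was at most 1.5 RPM, and its centre lay more than 10 kb from every gene start of the RNA-seq table. Consecutive tiles were merged, which left 3480 sites out of 16242 H3K4me3 regions in all. Of the 3480, 1790 (51.4%) lay inside a gene body of that table and 1690 outside. The other 12762 regions, which held a tile within 10 kb of a start, served for comparison.

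The study asked what happens in mice in which the PWWP domain of DNMT3A, the part of this DNA methyltransferase that reads methylated H3K36, carries the D329A substitution. The ChIP-seq groups were 3 +/+ and 3 Δ/D329A animals at 14 weeks, and from each animal came 1 library per mark and 1 of input, made with native chromatin cut with micrococcal nuclease. Δ is a Dnmt3a allele without exon 18, deleted in the oocyte by Zp3-Cre and so inherited from the mother, and D329A was therefore the only functional allele of the mutant. RNA-seq covered 5 +/+ and 4 Δ/D329A hypothalami, and all animals were C57BL/6. A supplementary legend of the paper names female hypothalamus for the RNA-seq. A main legend names male hypothalamus for views of expression and histone marks. The sex of the RNA-seq and ChIP-seq animals may therefore differ. The same crosses gave both genotypes, and animals were drawn from several litters. The tissue was whole hypothalamus, so each value averages over neurons and glia, and fewer cells of a type and less of a mark or RNA per cell cannot be told apart. DNA methylation and the other tissues of the series were not analysed here.

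Depth ranged from 12676361 to 15944966 mapped reads for H3K4me3, 14874942 to 26178088 for H3K27me3, 19056381 to 22850001 for H3K36me3 and 14708936 to 30207875 for input. One library stood apart: Δ/D329A replicate 1 for H3K4me3 had a median autosomal tile of 0.376 RPM, against 0.129 to 0.200 RPM in the other 5, so the H3K4me3 calls and the differences of the sites named for them are also given without it. The 12 hypothalamic neuropeptide genes summed to 427 to 899 RPKM in +/+ and 488 to 705 RPKM in Δ/D329A, which fits the labelled tissue. The 4 thalamus and habenula markers summed to 1.97 to 3.15 RPKM in +/+ and 3.91 to 6.85 RPKM in Δ/D329A. Of the 4, 3 reached 0.1 RPKM, and 1, Pou4f1, was called higher. The list holds Pou4f1 and Lhx9, which the paper reports as upregulated and hypermethylated in Δ/D329A, so the sum is not a measure of tissue alone.

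H3K4me3 is laid down at active and poised promoters, above all where CpG is dense, because the complexes that write it bind unmethylated CpG. H3K27me3, the mark of Polycomb repressive complex 2, shares such CpG-rich promoters with H3K4me3 at silent developmental genes. H3K36me3 is deposited behind elongating RNA polymerase, so it fills the bodies of transcribed genes and is low at their starts.

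Letters of 5 sites show what kind of sequence the sites hold. Each is the 300-base stretch with the most CpG in the site that is free of annotated exons, read from the plus strand of GRCm38, 5′ to 3′, with every CG in capitals. Lrrc4c stands for the strongest sites, Espn and Bdnf for those with less H3K4me3 in Δ/D329A, the site near Osr1 for those with more H3K4me3 and less H3K27me3, and the site near AC152394.2 for those with more H3K27me3. The windows are chr2:97466503-97466802, chr4:152126602-152126901, chr2:109693910-109694209, chr12:9585084-9585383 and chr15:40169750-40170049, and hold 20, 16, 24, 7 and 13 CG in that order.
Lrrc4c: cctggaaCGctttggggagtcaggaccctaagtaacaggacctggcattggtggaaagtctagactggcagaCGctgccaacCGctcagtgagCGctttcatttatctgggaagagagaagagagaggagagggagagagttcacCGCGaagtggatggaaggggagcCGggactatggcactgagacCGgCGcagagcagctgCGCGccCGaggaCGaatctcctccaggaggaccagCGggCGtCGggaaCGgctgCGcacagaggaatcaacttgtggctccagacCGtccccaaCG
Espn: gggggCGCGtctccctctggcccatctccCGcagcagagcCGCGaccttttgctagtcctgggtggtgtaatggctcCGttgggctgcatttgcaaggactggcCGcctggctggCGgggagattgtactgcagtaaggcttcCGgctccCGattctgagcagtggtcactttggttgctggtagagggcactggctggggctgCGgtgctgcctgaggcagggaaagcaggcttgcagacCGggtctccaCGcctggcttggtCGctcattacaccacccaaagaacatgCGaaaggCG
Bdnf: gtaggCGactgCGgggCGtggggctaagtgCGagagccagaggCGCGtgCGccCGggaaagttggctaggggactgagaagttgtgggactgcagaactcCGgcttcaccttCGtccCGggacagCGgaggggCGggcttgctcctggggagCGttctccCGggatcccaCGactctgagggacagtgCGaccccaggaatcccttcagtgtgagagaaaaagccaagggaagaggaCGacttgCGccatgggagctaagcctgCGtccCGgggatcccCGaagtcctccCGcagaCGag
near Osr1: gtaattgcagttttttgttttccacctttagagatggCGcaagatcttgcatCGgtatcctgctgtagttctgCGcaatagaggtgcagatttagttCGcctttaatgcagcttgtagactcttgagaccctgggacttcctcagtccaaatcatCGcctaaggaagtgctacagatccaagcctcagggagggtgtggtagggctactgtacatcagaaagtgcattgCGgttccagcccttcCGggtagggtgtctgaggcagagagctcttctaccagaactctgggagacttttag
near AC152394.2: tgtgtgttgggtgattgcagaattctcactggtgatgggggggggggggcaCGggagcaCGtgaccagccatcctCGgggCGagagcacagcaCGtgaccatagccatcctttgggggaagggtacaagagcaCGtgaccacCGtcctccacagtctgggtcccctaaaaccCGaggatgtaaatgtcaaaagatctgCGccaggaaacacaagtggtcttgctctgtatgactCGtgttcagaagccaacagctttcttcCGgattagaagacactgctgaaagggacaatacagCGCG

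The label "far from annotated starts" held for the deposited gene list but not for fuller annotation. That list gives 1 start per gene, whereas GENCODE M21 or RefSeq places the start of at least 1 transcript within 1930 of the sites (55.5%). Inside gene bodies 65.2% of sites held such a start, and outside 45.1%. Among the 1790 inside, 989 held the start of a protein-coding transcript, 39 that of a long noncoding RNA, 3 that of a small RNA, 20 that of another type, 116 a start in RefSeq alone, and 623 none. Among the 1690 outside the counts were 196, 271, 33, 76, 187 and 927. For the strongest tile of each site the share with a GENCODE or RefSeq start was 51.5%, against 4.46% of all distal autosomal tiles and 92.7% of the strongest tiles near a start.

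**Figure D1:**
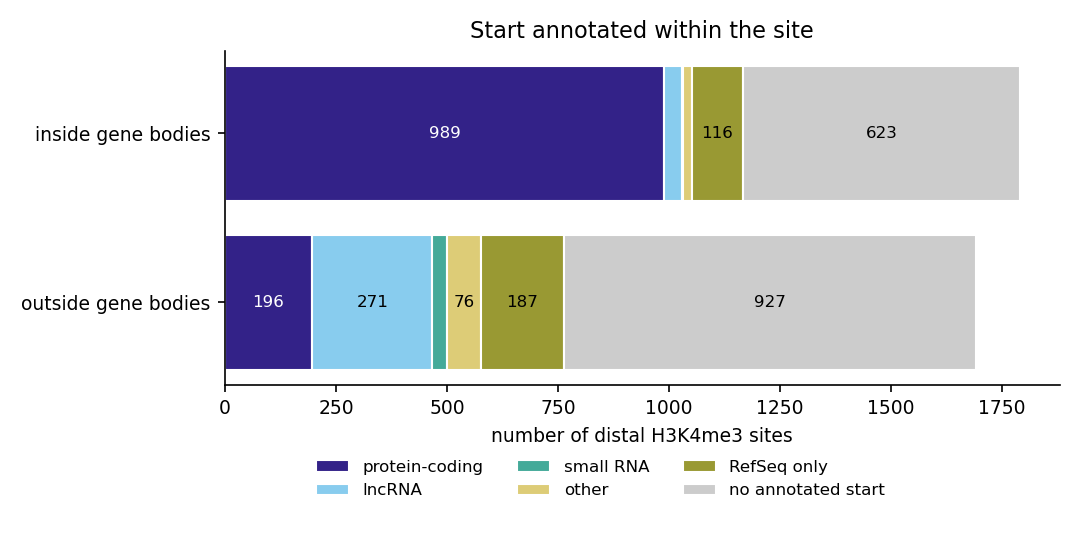
Number of distal H3K4me3 sites (horizontal axis) inside and outside gene bodies, divided by the kind of transcript start that GENCODE M21 or RefSeq places within the site. Protein-coding starts make up 989 of the 1790 sites inside gene bodies, and 927 of the 1690 outside hold no annotated start.

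Most sites were narrow. A single tile made up 625, a pair of tiles 1492, and 5 or more tiles 286. The median distance from the nearest listed start was 37.2 kb. Only 182 adjoined a region near a start, and 58 lay in more than 1 gene. The sites inside gene bodies fell in 1372 of 24483 autosomal genes (5.60%), with a median length of 100.5 kb. The rule keeps out genes of 10 kb or less, which hold no site, so length is in part fixed by it. The 1301 that were expressed well enough for a test had a median length of 103.01 kb and a median +/+ level of 1.85 on the log2 RPKM scale, against 31.7 kb and 1.54 for the 9789 other autosomal genes over 10 kb that were tested.

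The sites were rich in CpG, also where no transcript start is annotated. The strongest tile held a median of 44 CpG per 2 kb, against 13 in all distal autosomal tiles and 86 in regions near a start. Sites without an annotated start had a median of 40 and those with one 50. By a base-composition criterion for CpG islands, met when G and C are the majority of bases in a short window and CpG is frequent for their number, 75.5% of sites held one, 72.6% of those without and 77.8% of those with an annotated start, against 9.34% of distal tiles and 95.3% of regions near a start. H3K4me3 chose the sites, so the comparison is a description.

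**Figure D2:**
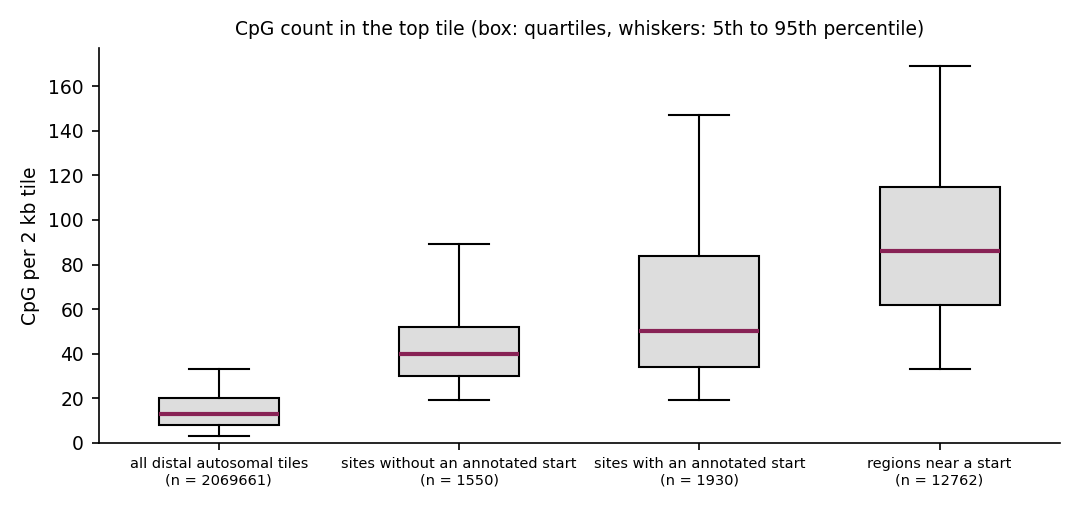
CpG per 2 kb in the strongest tile of each region (vertical axis), with boxes for the quartiles, lines for the medians and whiskers from the 5th to the 95th percentile. Sites without an annotated start (median 40) lie well above all distal autosomal tiles (median 13) and below regions near a start (median 86).

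Most short promoter motifs followed the same order. The letters were searched on both strands of the strongest tile, each motif by itself, so that 1 tile can hold several. The GC box GGGCGG, bound by SP factors, was present in 65.0% of sites, 13.5% of distal tiles and 89.3% of regions near a start, and in 59.0% of sites without an annotated start. The ETS core CCGGAAG occurred in 18.7%, 4.72% and 32.9%, the cyclic AMP response element TGACGTCA in 3.19%, 1.03% and 4.93%, and the palindromic NRF1 motif in 1.15%, 0.0951% and 2.50%. The AT-rich TATAAA ran the other way, with 61.5%, 82.5% and 49.2%. The core motif of CTCF, which separates chromatin domains, was found in 1.60% of sites outside and 0.615% inside gene bodies, against 0.202% of distal tiles and 0.509% of regions near a start. Motifs with CG are more frequent wherever CpG is dense, and a match is not a bound site.

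The strongest sites inside gene bodies held annotated coding starts of genes used in the brain. Levels of +/+ H3K4me3 chose the sites and are given as a description. Inside gene bodies the highest tile lay in Stox2 at 56.3 RPM, followed by Lrrc4c, which encodes a synaptic adhesion protein, at 54.8 RPM and Ppp2r2b, a regulatory subunit of protein phosphatase 2A, at 54.5 RPM. The Lrrc4c site, 9 tiles wide, carried 28.3, 27.3 and 29.9 RPM over its tiles in the +/+ animals and 16.8, 29.2 and 26.7 RPM in Δ/D329A. Δ/D329A replicate 1 was the low value.

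Outside gene bodies the top sites were mostly starts that the deposited list lacks. The highest tile, 57.3 RPM, held the GENCODE start of Tmem178b, a transmembrane protein gene, although the nearest listed gene was Mrps33. The next held the start of a transcript of Fat3, a giant cadherin of neurons, at 55.1 RPM, and that of the noncoding RNA 1810026B05Rik at 51.8 RPM. Starts of Ank2, Kcnma1, Nlgn1 and Clasp2, genes for an ankyrin, a potassium channel, a postsynaptic adhesion protein and a microtubule-binding protein, were also among the 10 highest outside. In all, 210 sites counted as outside lay in the body of a protein-coding gene by GENCODE.

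Just within the limit of 5 RPM were a tile near Ppm1l at 5.0003 RPM and one in Pcdhga11 at 5.003 RPM, and just below it 2 tiles at 4.9986 and 4.9982 RPM. The nearest distances on either side of 10 kb were 10000.5 and 9999.5 bases, and the nearest input values on either side of 1.5 RPM were 1.46 and 1.52. The same rule applied to the 3 Δ/D329A libraries gave 3086 sites, which overlapped 2957 (85.0%) of the 3480, and 96.0% of them overlapped one of the 3480. At 3 RPM the rule gave 5973 sites and at 8 RPM 2228.

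Most of the long neuronal genes known for internal promoters held sites. Of 40 such genes, 35 had at least 1, in 100 of the 3480 sites, 91 of them inside the gene body and 68 with an annotated start. Among those over 100 kb, 31 of 35 held a site in their body, against 29.7% of all autosomal genes over 100 kb. The listed genes of this size were longer, with a median of 493.2 kb against 165.9 kb, so the shares are a description. Pde4d, a cyclic AMP phosphodiesterase, had 8 inside its body, with means from 5.33 to 30.3 RPM. Tcf4, a basic helix-loop-helix factor, had 7, from 6.68 to 21.1 RPM. Dlg2 and Macf1, genes for a postsynaptic scaffold and a cytoskeletal linker, had 5 each.

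Nrxn2 and Nrxn3, genes for presynaptic neurexins, held 3 and 2 sites, of which those with the highest means, at 26.8 and 15.3 RPM, each held an annotated coding start. None of 19 hypothalamic neuropeptide genes had a site, but 17 of them are 10 kb or shorter and could hold none in their body by the rule. Oligodendrocyte genes accounted for 10 sites at 6 genes, among them an 8-tile site in Mbp, the myelin basic protein gene, at 12.9 RPM. Astrocyte genes had 2.

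Imprinted genes held 15 sites at 11 genes. The promoter of Kcnq1ot1, the noncoding RNA within Kcnq1, carried 20.7 RPM, that of Peg13 within Trappc9 23.2 RPM, and the upstream promoters of Gnas 20.4 RPM. None of the 15 was called for H3K27me3 or H3K36me3 between the genotypes, where 1.68% and 0.0369% of all regions were called.

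Several of the widest sites lay over microRNA genes, which were singled out after their values had been seen. RefSeq places 45 of 1005 hairpins in 33 sites, with a median width of 4 tiles. These held all 3 genes of miR-9, a brain microRNA that promotes neuronal differentiation. They are shown with bases 2 to 8, the seed that pairs with target messages, in capitals; coordinates are those of RefSeq on GRCm38.
miR-9-5p: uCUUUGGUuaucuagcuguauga
miR-9-3p: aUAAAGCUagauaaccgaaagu
miR-137-3p: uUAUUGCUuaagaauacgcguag
miR-219a-5p: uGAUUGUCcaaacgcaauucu
miR-338-3p: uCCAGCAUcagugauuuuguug
let-7i-5p: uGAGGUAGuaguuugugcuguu
miR-7b-5p: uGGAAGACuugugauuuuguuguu
No 2 of these 7 share a seed. miR-9-5p lies at chr3:88215613-88215635, chr13:83738821-83738843 and chr7:79505279-79505301, all on the plus strand, in sites of 14, 11 and 12 tiles. The mean +/+ H3K4me3 was 18.6 ± 2.20, 30.2 ± 2.81 and 20.9 ± 2.64 RPM (SD, n = 3) there, and 13.05 ± 3.24, 24.3 ± 8.003 and 17.3 ± 3.59 RPM in Δ/D329A. All 3 also carried H3K27me3, at 2.34, 1.11 and 1.45 RPM in +/+, above the median of 0.530 RPM over all sites. The median autosomal tile of the +/+ H3K27me3 libraries held at most 0.645 RPM.

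miR-219a and miR-338, which drive oligodendrocyte maturation, came from sites near Cercam and in Aatk with high H3K36me3, 1.57 and 1.91 RPM in +/+ against a median of 0.276 RPM over all sites. The let-7i site, at 23.9 ± 0.853 RPM of H3K4me3, had 0.0960 RPM of H3K27me3, below the median of 0.530 RPM, and 0.314 RPM of H3K36me3, near the median. None of the 33 sites was called for H3K27me3 or H3K36me3 between genotypes, and 1 of 32 tested was called for H3K4me3. Of all regions, 1.68%, 0.0369% and 0.982% were called for these marks in that order, so counts among so few sites say little. The widest site of all, 18 tiles at chr15:85665001-85684000, held no annotated start. Its nearest listed gene was Ppara, and its mean H3K4me3 was 19.7 RPM.

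Sites inside and outside gene bodies differed in H3K36me3 and H3K27me3. Inside, H3K36me3 was higher, and outside, H3K27me3 was higher, in each of the 6 animals. Neither mark entered the choice of sites. Median H3K36me3 inside was 0.361, 0.379 and 0.393 RPM in the +/+ animals and 0.377, 0.393 and 0.409 RPM in Δ/D329A, against 0.204, 0.201 and 0.227 RPM and 0.227, 0.229 and 0.262 RPM outside. The ratio ran from 1.56 to 1.88. Median H3K27me3 outside was 0.629, 0.630 and 0.603 RPM in +/+ and 0.672, 0.688 and 0.762 RPM in Δ/D329A, against 0.440, 0.420 and 0.421 RPM and 0.437, 0.420 and 0.474 RPM inside, a ratio of 1.43 to 1.64. The order was the same in 6 of 6 animals for the strongest tile, after division by input and without sites of 1 tile. Regions near a start had less H3K27me3 than either, 0.157 to 0.225 RPM. The median autosomal tile held at most 0.649 RPM of H3K27me3 and 0.523 to 0.590 RPM of H3K36me3, depending on the library. Against the tile of the same library, median H3K36me3 was lower both inside and outside in all 6 animals. Median H3K27me3 was lower inside in all 6, and outside it was near that tile in +/+ and above it in Δ/D329A. The contrast of inside and outside is therefore not a measure of enrichment over the genome.

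**Figure D3:**
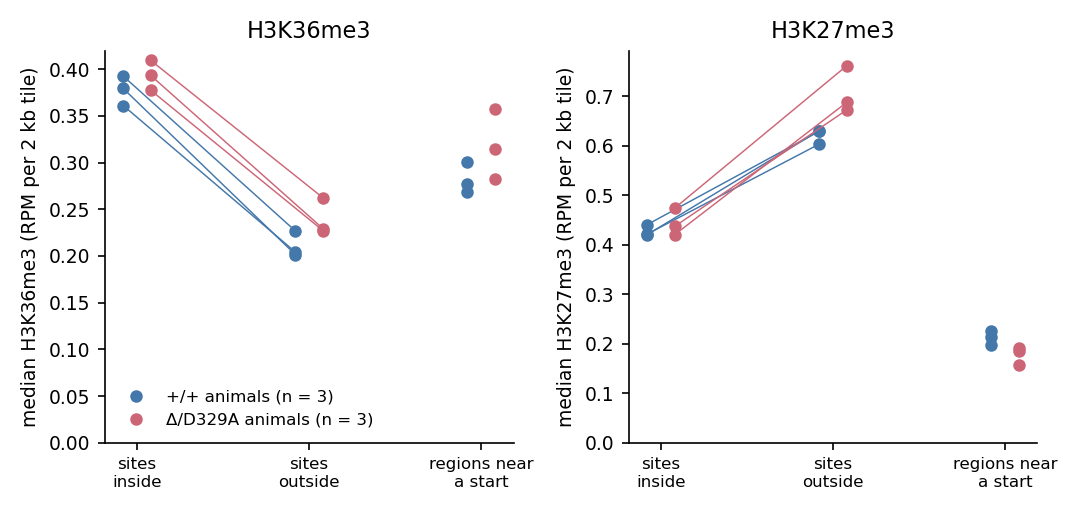
Median H3K36me3 (left) and H3K27me3 (right) per 2 kb tile in RPM, for sites inside and outside gene bodies and for regions near a start. Each point is 1 animal, and lines join the values of an animal. H3K36me3 falls and H3K27me3 rises from inside to outside in all 6 animals.

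Both marks varied with expression of the host gene. At sites in genes under 0.1 RPKM (76 sites), from 0.1 to 1 (246), 1 to 4 (589), 4 to 16 (718) and at 16 RPKM or more (161), median +/+ H3K36me3 was 0.182, 0.250, 0.354, 0.430 and 0.559 RPM. H3K27me3 over the same classes was 0.863, 0.891, 0.509, 0.281 and 0.289 RPM. H3K4me3 changed less and without a single direction, with 6.97, 8.07, 10.3, 11.5 and 9.37 RPM. Host genes share sites and libraries, and the classes are described without a test.

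High H3K27me3 was found beside developmental regulators. The 4 highest sites were near Irx2 at 6.18 RPM, near Nkx2-1 at 6.05 RPM, near Parp8 at 5.93 RPM and in 4930557F10Rik at 5.84 RPM. Irx2 and Nkx2-1 encode homeodomain factors, and Nkx2-1 is needed to form the hypothalamus. Of 96 developmental transcription factor genes, 16 had a site. Their 23 sites had a median of 2.75 RPM of H3K27me3 in +/+, against 0.530 RPM over all sites.

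Among the sites with the most H3K36me3 were those in Tmcc1, Ckap5, Gm15800 and Pdxdc1, with +/+ means of 2.96, 2.89, 2.79 and 2.76 RPM, against a median of 0.276 RPM over all sites.

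H3K27me3 rose in Δ/D329A at 58 sites and fell at 11. In limma on log2(RPM + 0.1) over all 16242 regions, with Benjamini-Hochberg adjustment at 0.05, 1.98% of the sites were called against a background of 1.68% of all regions, so the share was close to that of all regions. By direction, 1.67% of sites were higher and 0.316% lower, against 1.38% and 0.302% of all regions. Sites and regions were chosen on +/+ H3K4me3, so sites with enough H3K4me3 in Δ/D329A alone were left out. Where the marks go opposite ways, this choice favours rises of H3K27me3 over falls, and its size was not tested. Of the 58 higher, 42 lay outside gene bodies and 33 of these held no annotated start. The 42 were 2.49% of the sites outside, and the 33 were 3.56% of those outside without an annotated start. Inside gene bodies 0.894% of sites were higher. Called or not, 371 sites (10.7%) were higher and 245 (7.04%) lower without overlap of the groups, against 8.03% and 8.59% of all regions. The count and its split depended on single libraries. Without +/+ replicate 1, 2 or 3 there were 36, 18 or 39 higher and 7, 6 or 6 lower. Without Δ/D329A replicate 1, 2 or 3 there were 13, 137 or 10 higher and 7, 23 or 9 lower, and without a variance trend 1 higher and 2 lower.

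The largest rise was at a site near Enpp2, the gene for autotaxin, which is active in oligodendrocytes; the site holds the start of an Enpp2 transcript. H3K27me3 there was 0.566, 0.360 and 1.21 RPM in +/+ and 2.62, 2.22 and 2.26 RPM in Δ/D329A, a log2 difference of 1.73 ± 0.28 (SE, adjusted p = 0.000843). No +/+ animal reached the mutant values. The site near Cep78, a centrosomal protein gene, went from 0.629, 0.300 and 0.793 RPM to 2.15, 2.18 and 1.60 RPM, a difference of 1.69. The CpG-rich site near AC152394.2 had 0.535, 0.630 and 0.793 RPM in +/+ and 2.25, 2.08 and 2.21 RPM in Δ/D329A, a difference of 1.61.

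Sites near Sp7, a bone transcription factor gene, and near Pvr, an adhesion receptor gene, completed the 5 largest rises, each with a difference of 1.57. In Nhsl1, chosen after its values were seen, 3 separate sites rose, by 0.83, 1.12 and 1.51 on the log2 scale (limma adjusted p = 0.03001, 0.0230 and 0.00329). Other hosts with a site called higher were Exph5, Cd247, Prdm16, Sgk3, Rasgrp3, Cx3cr1, Sytl2, Pbx3, Lhfpl2 and Ahrr, likewise named after their values were seen. Oligodendrocyte markers summed to 240 to 371 RPKM in +/+ and 157 to 295 RPKM in Δ/D329A, with overlap. All 4 of those markers were expressed, and their part in the Enpp2 result was not tested.

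The largest fall was at a site that holds the start of Dleu2, a noncoding RNA gene that hosts microRNAs, near Kcnrg. H3K27me3 fell from 2.12, 2.64 and 2.91 RPM to 0.353, 0.602 and 0.482 RPM, a log2 difference of -2.21 ± 0.25 (limma adjusted p = 5.36e-06). A further Dleu2 site, named after its value was seen, fell by 1.22 on the log2 scale, and the one near Skor1, a corepressor gene, by 1.89. At the site near Osr1, a zinc finger factor gene, values were 3.27, 4.02 and 3.82 RPM in +/+ and 0.538, 1.68 and 1.32 RPM in Δ/D329A, a difference of -1.69.

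In Tfap2a, a gene for a factor of neural crest development, they were 4.47, 4.38 and 4.91 RPM and 0.807, 2.29 and 1.47 RPM, a difference of -1.64. In both sites Δ/D329A replicate 2 kept the most H3K27me3 of its group, yet lay below each +/+ animal. Abr, a regulator of small GTPases, followed with -1.27 (limma adjusted p = 0.0314), a call kept in 8 of 17 alternatives, and Lhx2, a homeodomain factor gene, with -0.75 (limma adjusted p = 0.0136). Lhx2 was the 1 site of the 23 at developmental regulators that was called. Thalamus and habenula markers (1.97 to 3.15 against 3.91 to 6.85 RPKM), which include Pou4f1 and Lhx9 (above), also differed between the genotypes. Their part was not tested.

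**Figure D4:**
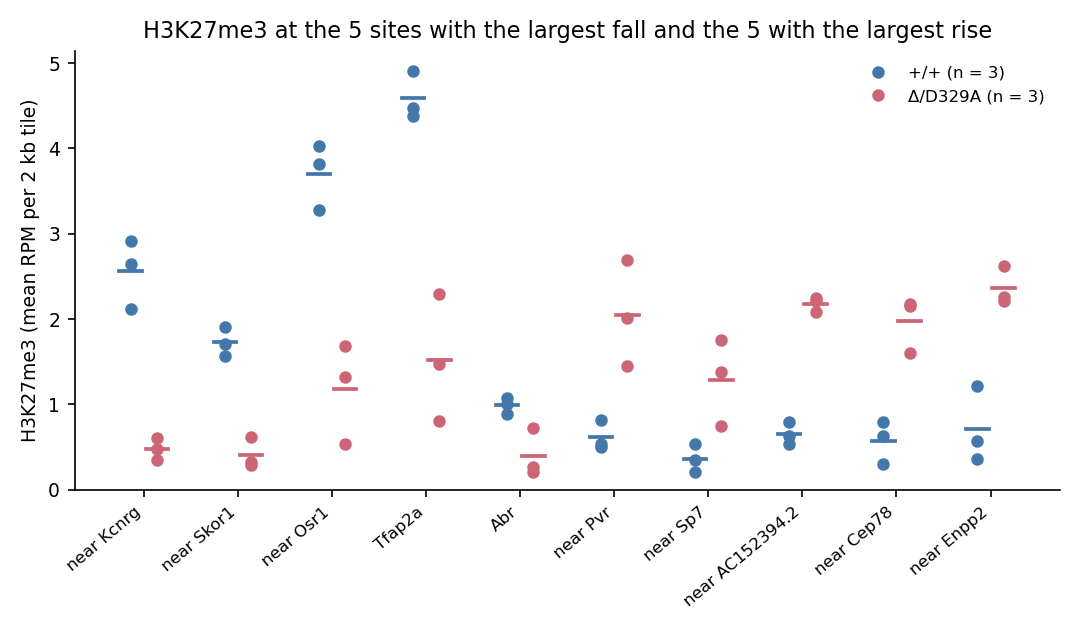
H3K27me3 (RPM per 2 kb tile, vertical axis) at the 5 sites with the largest fall (left) and the 5 with the largest rise (right). Points are animals, 3 per genotype, and short bars are group means. The groups do not overlap at any of the 10, with the fall near Kcnrg from 2.12 to 2.91 RPM down to 0.353 to 0.602 RPM.

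H3K36me3 was called different between the genotypes at 1 site. This site, near the homeodomain gene Isl1, rose in Δ/D329A (background 0.0369% of all regions). It had 0.306, 0.142 and 0.209 RPM in +/+ and 0.633, 0.639 and 0.682 RPM in Δ/D329A, a difference of 1.27 ± 0.25 (limma adjusted p = 0.0482), and kept the call in 2 of 16 alternatives. At an unadjusted limma p under 0.05 were 309 of the 3480 (8.88%), against 6.98% of all regions. The groups did not overlap at 308 sites that were higher (8.85%) and 123 that were lower (3.53%), against 8.41% and 3.29% of all regions. The median difference over the sites was 0.08 under RPM scaling and -0.10 under TMM scaling, while that over all regions moved from 0.08 to -0.09, so no common direction is given.

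H3K4me3 in the mutant could not be compared on the 3480 sites themselves, because +/+ libraries had chosen them. The comparison used 3256 distal sites taken by the same rule from the mean of all 6 libraries, of which 98.2% overlapped the 3480 and 91.8% of the 3480 overlapped them. Of these, 32 fell and 8 rose, in all 1.23% against a background of 0.982% of 15884 regions (0.825% lower, 0.157% higher). All 32 of the lower and 4 of the 8 higher were among the 3480. Called or not, 297 sites (9.12%) were lower and 16 (0.491%) higher without overlap of the groups, against 5.68% and 0.327% of all regions.

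The whole distribution was shifted: the median difference was -0.14 over these sites and -0.11 over all regions, and TMM scaling moved the latter to -0.00448 and left 6 lower and 5 higher. Without Δ/D329A replicate 1 the median over sites was 0.04, and 48 sites were lower and 30 higher, with 28 of the 32 and all 8 among them. Leaving out Δ/D329A replicate 2 gave 165 lower and 6 higher, and leaving out Δ/D329A replicate 3 gave 14 lower and 0 higher. Without +/+ replicate 1, 2 or 3 there were 5, 6 or 9 lower and 0, 3 or 6 higher.

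The largest fall was in Espn, the gene for espin, an actin-bundling protein of hair cell stereocilia. H3K4me3 there was 9.17, 13.8 and 13.5 RPM in +/+ and 2.01, 1.58 and 1.87 RPM in Δ/D329A, a log2 difference of -2.66 ± 0.34 (limma adjusted p = 1.90e-10). No mutant value came near a +/+ value, and the call held in 17 of 17 alternatives; without Δ/D329A replicate 1 the difference was -2.73. H3K27me3 at the site was 3.90 RPM in +/+ and 4.53 RPM in Δ/D329A on average, without a call. RNA of Espn, at -4.06 and -4.33 on the log2 RPKM scale, was below the limit for a test.

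A site near Nedd1, a centrosomal protein gene, fell by 1.65 on the log2 scale, from 12.7, 19.4 and 14.6 RPM to 3.80, 7.10 and 4.11 RPM. The site near Gm9376 fell by 1.58 and the one near AC134601.2, on chromosome 12, by 1.46, and both were among the 5 largest falls. The site near AC134601.2 lies between 18 and 23 Mb, the interval of the chromosome 12 rises described below. Without Δ/D329A replicate 1 these 3 differences were -1.49, -1.50 and -1.70, all still called.

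Further sites that fell, named after their values were seen, lay in neuronal genes. In Nrxn2 values were 7.78, 9.71 and 10.4 RPM in +/+ and 3.20, 4.58 and 4.71 RPM in Δ/D329A (difference -1.15), and in Foxp1, a forkhead factor gene, 8.92, 10.1 and 7.59 RPM and 3.51, 5.25 and 3.32 RPM (difference -1.14). Both kept the groups apart. In Bdnf, the gene for the brain-derived neurotrophic factor, which has many alternative promoters, they were 19.2, 19.01 and 17.6 RPM and 8.62, 16.6 and 8.63 RPM, a difference of -0.79 (limma adjusted p = 0.0407) that was kept in 7 of 17 alternatives. Without Δ/D329A replicate 1 the differences were -0.97 in Nrxn2, -1.06 in Foxp1 and -0.63 in Bdnf, all still called. The Nrxn2 call was kept in 12 of 17 alternatives and the Foxp1 call in 10 of 17.

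The Exph5 site showed the same split of the mutants, 3.14, 10.8 and 3.45 RPM against 12.7, 11.6 and 12.9 RPM in +/+. In 24 of the 32 sites Δ/D329A replicate 2 was the highest of its group. Its median over all 3480 sites was also the highest, with 6.27, 9.53 and 8.65 RPM in Δ/D329A replicates 1, 2 and 3. The count is therefore not read as a trait of the called sites. The site over Mir219a-2 near Cercam fell as well, from 13.2, 21.9 and 18.2 RPM to 7.00, 12.9 and 10.7 RPM, a difference of -0.81 (limma adjusted p = 0.0342). Without Δ/D329A replicate 1 the differences were -1.01 in Exph5 and -0.56 near Cercam, and both calls held. The Exph5 call was kept in 12 of 17 alternatives.

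The sites that rose included 5 at developmental factor genes; all 8 are named, 3 of them after their values were seen. In Tfap2a H3K4me3 was 6.77, 6.58 and 7.55 RPM in +/+ and 13.2, 14.5 and 17.2 RPM in Δ/D329A, a difference of 1.09 ± 0.24 (limma adjusted p = 0.00132). Near Osr1 it was 7.46, 6.38 and 7.09 RPM and 10.7, 16.4 and 14.6 RPM, and near Tbr1, a T-box factor gene of cortical projection neurons, 4.02, 3.69 and 4.99 RPM and 8.09, 9.39 and 10.1 RPM. These 3 were the rises without overlap. Without Δ/D329A replicate 1 the differences were 1.17 in Tfap2a, 1.14 near Osr1 and 1.19 near Tbr1, all still called. None of the 8 rises was called without Δ/D329A replicate 3 or without +/+ replicate 1. The Tfap2a call was kept in 13 of 17 alternatives and the call near Tbr1 in 12 of 17.

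In Zic4, a zinc finger factor gene, the values were 3.98, 4.05 and 9.42 RPM and 5.61, 22.5 and 10.8 RPM, and near Zic4 3.07, 2.76 and 6.04 RPM and 4.42, 18.1 and 8.36 RPM. Δ/D329A replicate 2 was highest at both, and the groups overlapped. The differences were 1.04 and 1.21, and 1.53 and 1.70 without Δ/D329A replicate 1; the call near Zic4 was kept in 8 of 17 alternatives. The cortical projection neuron markers, which include Tbr1 itself, summed to 1.61 to 2.51 RPKM in +/+ and 2.21 to 3.55 RPKM in Δ/D329A, with overlap. Thalamus and habenula markers, which include Pou4f1 and Lhx9, did not overlap, as above. The part of either list in these 5 rises was not tested.

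The other 3 sites that rose lay on chromosome 12 between 18 and 23 Mb. At 2 of them, near 5730507C01Rik and 2410018L13Rik, +/+ replicate 1 had 0.253 and 0.190 RPM, where the other +/+ animals had 5.05 to 6.63 RPM. At the third, near Zfp125, +/+ replicate 1 had 3.31 RPM and the other +/+ animals 14.9 and 15.2 RPM. Without +/+ replicate 1 no site was called higher, whereas without Δ/D329A replicate 1 these 3 were still called, with differences of 1.996, 1.98 and 1.30. At the first 2 the input and the H3K27me3 of +/+ replicate 1 also held 0 reads, which allows up to 0.204 and 0.189 RPM by counting error alone, whereas input was 0.199 to 0.525 RPM and H3K27me3 0.420 to 1.78 RPM in the other 5 animals.

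**Figure D5:**
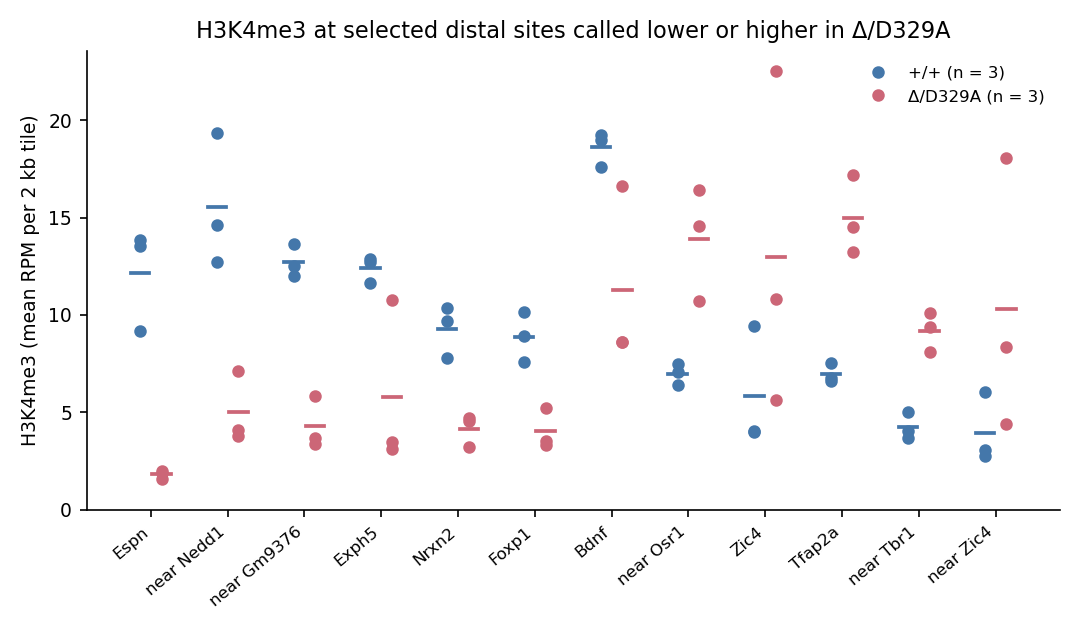
H3K4me3 (RPM per 2 kb tile, vertical axis) at a selection of the distal sites called lower (left) or higher (right) in Δ/D329A, with points for animals, 3 per genotype, and bars for group means. Espn has the widest gap, and a single high Δ/D329A animal is visible at Exph5, Bdnf and both Zic4 sites.

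Few sites were called for both H3K27me3 and H3K4me3, and where they were, the marks went opposite ways. Of the 58 sites with more H3K27me3, 45 were in the list chosen on all 6 libraries, and at 45 of 45 the H3K4me3 difference was below 0, as it was at 83.7% of all sites in that list. H3K4me3 was called lower at 3 of them, in Exph5, in Cd247 and near Utp6, and the Cd247 call was lost without Δ/D329A replicate 1 (-0.75, limma adjusted p = 0.0939). At Exph5 H3K27me3 was 3.17 ± 0.428 RPM in +/+ and 5.49 ± 0.593 RPM in Δ/D329A. Of the 11 sites with less H3K27me3, 8 were in the list, and 2, in Tfap2a and near Osr1, were called higher for H3K4me3. Both marks come from the same animals, so the pairs are not independent.

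RNA of the genes that hold the sites did not pass the threshold in the main fit. In limma on log2 RPKM none of 1301 host genes tested had an adjusted p under 0.01, where 19 of 17839 genes did (background 0.107%, or 0.0841% higher and 0.0224% lower). In simulated RNA libraries, fitted on reads scaled by library size, limma recovered 12 of 100 genes changed by a log2 difference of 1. At a difference of 2 it recovered 61 of 100. An absent call is therefore not evidence of equal expression. At an unadjusted p under 0.05 were 99 host genes, 7.61%, against 7.62% of all genes tested. On recovered reads edgeR called 4 (0.432% of all genes), and DESeq2 called 31 of 1323, 22 higher and 9 lower (1.52% of all genes). The 4 were chosen after their values were seen: Wdfy1, an endosomal adaptor gene, and Dclk1, a microtubule-associated kinase gene, were lower by edgeR, and Cdyl, a chromodomain corepressor gene, and Onecut2, a homeodomain factor gene, were higher.

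Wdfy1 was 2.79 ± 0.379 on the log2 RPKM scale in +/+ (SD, n = 5) and 1.49 ± 0.532 in Δ/D329A (n = 4), without overlap, with an adjusted p of 0.155 in limma and 0.00321 in edgeR. Onecut2 was 0.905 ± 0.199 and 1.65 ± 0.131, again without overlap. RNA of hosts with called sites was not called in limma: Bdnf differed by -0.46 ± 0.26 (limma adjusted p = 0.427), Nrxn2 by 0.01 and Exph5 by -0.13. The paper, which used DESeq at an adjusted p under 0.01, lists Bdnf among the genes downregulated in Δ/D329A. Tbr1 RNA, at -3.74 ± 0.819 and -1.78 ± 0.276, did not overlap between the groups but was not called (limma adjusted p = 0.119).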

How the data were processed

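ChIP-seq was measured in 24 hypothalamus libraries and RNA-seq in 9. According to the methods, the authors trimmed reads with Trim Galore, aligned them to GRCm38 with Bowtie (ChIP-seq) or HiSat2 (RNA-seq) and quantified them in SeqMonk. The deposited ChIP-seq values are coverage in RPM, reads scaled by library size, over 2725549 tiles, and the deposited RNA-seq values are log2 RPKM of 25965 genes. Both scale each library to its own reads, so a global change is not visible. Whole reads were recovered from all RPM values.

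From these, tiles were joined into regions, averaged per library and fitted with limma 3.58.1 (variance trend, log2(mean RPM + 0.1), adjusted p under 0.05; RNA adjusted p under 0.01, genes at 0.1 RPKM in at least 4 libraries), with edgeR 4.0.16 and DESeq2 1.42.0 on recovered reads as alternatives. The fits were tested on simulated data. Of 100 regions changed by a log2 difference of 1, 11 were recovered for H3K27me3, 2 for H3K36me3 and 83 for H3K4me3. False calls among all regions were 0, 0 and 12. The changed regions were drawn from all H3K4me3 regions, not from the sites alone. Reads of the strongest tile were simulated with a set spread, whereas the main fits average all tiles. For RNA-seq 12 of 100 changed genes were recovered, with 1 false call. Named by rule were the 10 highest H3K4me3 tiles inside and outside, the 5 widest, the 5 highest for each other mark, the 5 largest called changes per direction and sites of fixed gene lists. Members and lists were chosen with earlier results of these data known. Starts, microRNAs and sequences came from GENCODE M21 and RefSeq on GRCm38. A few sites named by rule are not reported here. Each animal is 1 replicate, and equal replicate numbers in both genotypes name different animals.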

Additional observations from a re-analysis of the deposited data

How the results depend on the processing

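The number of sites ranged from 3367 to 3615 when 1 +/+ replicate was left out; it was 5973 at 3 RPM and 2228 at 8 RPM, with 53.4% and 54.0% inside gene bodies, and at a distance of 5 kb the share inside was 55.5%. For H3K27me3 the 69 calls became 115 with a minimum mean of 0.5 RPM, 3 without a variance trend, 34 in DESeq2 and 0 when all autosomal tiles were tested. In that last fit 436 of 3480 sites had an unadjusted limma p under 0.05, against 1992 of all 16242 regions. Leaving out 1 replicate gave 19 to 160 calls. For H3K36me3 the 1 call became 0 with a pseudocount of 1 RPM, a minimum of 0.5 RPM, TMM scaling, no variance trend, edgeR, DESeq2, the strongest tile and the block for mitochondrial coverage, and 2 over all autosomal tiles; leaving out 1 replicate gave 0 to 2. For H3K4me3 the 40 calls became 11 under TMM scaling, 92 without a variance trend, 21 in edgeR, 74 in DESeq2, 1 over all autosomal tiles and 223 with a block for mitochondrial coverage, a set of high-coverage animals (+/+ 3, Δ/D329A 2 and 3) against the rest; leaving out 1 replicate gave 5 to 171. The sets were made from the H3K4me3 libraries alone and used for all marks. In input +/+ 1, in the low set, had the highest mitochondrial coverage, a mean of 83.0 RPM per tile. Within the high and low sets the median H3K4me3 difference was -0.08 and -0.44. For host-gene expression the 0 calls became 4 in edgeR and 31 in DESeq2. The causes of these changes were not tested. The higher H3K36me3 inside and higher H3K27me3 outside gene bodies kept their direction in 6 of 6 animals in the 3 alternatives run for them: the strongest tile, division by input, and sites of 1 tile left out.

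Equal replicate numbers were not taken as pairs, since for no measure were the correlations of same-numbered animals all above 0.1. Over all regions fitted they were 0.0486, 0.101 and 0.00429 for H3K27me3, -0.0219, -0.00246 and 0.000253 for H3K36me3, and 0.265, 0.0666 and 0.170 for H3K4me3. Over all genes tested they were -0.0543 to 0.137 for expression. With the replicate block H3K27me3 gave 132 calls, H3K36me3 0, H3K4me3 38 and expression 0.

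With 3 animals per genotype the depth of the marks limits the tests. At a simulated log2 difference of 1 the H3K27me3 fit recovered 11 of 100 regions and the H3K36me3 fit 2 of 100. These were drawn from all regions with a set spread, so recovery at the sites themselves was not measured. An absent call at a site is not evidence of an equal level. The simulated H3K4me3 fit also made 12 false calls, and the other marks 0. H3K27me3 and H3K36me3 at the sites mostly rest on few reads per tile, and the p-values measure the spread between these animals. The gene list gives 1 start per gene, so inside and outside follow that list.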
